A study of Mus musculus with 6 samples.

Results

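The regions described here are the open chromatin intervals of mouse chromosome 15 from 5 Mb to the end of the chromosome, in the deposited ATAC-seq peak lists of a study of the transcription factor Mixl1. The KO list held 8598 peaks there and the FM list 8728, out of 139164 and 205844 peaks on all assembled chromosomes. Merged, they formed 11767 regions of 239675 in all. The first peak started at 5026185 in the KO list and 5026209 in the FM list, and the last ended at 103937780 in the KO list and 103937566 in the FM list (mm10). The chromosome was chosen by the number of its peaks in the KO list relative to the FM list, which was already known to stand apart, so peak numbers, fold enrichments and ranks are described and not tested.

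ATAC-seq uses the transposase Tn5 to insert sequencing adapters into open chromatin. The libraries came from mouse epiblast stem cells, a cell type of the post-implantation epiblast kept on irradiated fibroblast feeders with bFGF and Activin A, which were then aggregated into embryoid bodies and differentiated in serum for 2 days. The first group was 3 libraries of Mixl1 KO cells, with no doxycycline recorded, and the second was 3 libraries of cells with inducible Mixl1, exposed to 1 µg/mL doxycycline over the final 24 h. A library took 50000 cells and 11 cycles of PCR. The labels do not describe the KO allele, the promoter behind the inducible gene or whether the 3 libraries of a group came from separate cultures. Mixl1, doxycycline and the cell lines differ together between the groups, so their effects cannot be told apart. Each group was deposited as 1 peak list. No label explains the name FM, and that list was taken as the induced group by elimination, since the other list is the knockout. No value below has a replicate error, and intervals cover the counting of regions or fragments only.

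Mixl1 is a paired-class homeobox factor that is expressed in the primitive streak and acts when mesoderm and endoderm form. Open chromatin in mammals lies mainly at promoters, where transcription starts, and at distal elements within genes and between them, which are more specific to a cell type. Chromosome 15 of the mouse carries the Hoxc cluster of body-axis homeobox genes, the type II keratins, the proto-oncogene Myc, the Nodal-pathway genes Foxh1 and Acvr1b, several Wnt genes, and long gene-poor stretches around the cadherin genes Cdh9, Cdh10, Cdh12 and Cdh18.

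The promoter windows below lie at regions with a high or a low KO to FM ratio, or have a peak of 1 list only over the window. Atp5g2, which encodes a subunit c precursor of mitochondrial ATP synthase, and Dbx2, a homeobox gene of the spinal cord, had the second highest and the second lowest KO to FM fold ratio among the strongest shared regions at gene ends. Tigd5 and Dnah5 had the highest and the lowest, and no window is shown for either. The windows of Prlr, the prolactin receptor, and Npr3, the natriuretic peptide clearance receptor, had a peak in the KO list and none in the FM list. At Prlr the region was shared, with an FM peak beside the window. The windows run from 250 bases before to 50 bases after the annotated start, 5′ to 3′ on the gene's strand, from RefSeq on GRCm38.p6. Capitals mark a match, on either strand, to a motif given after them.
Atp5g2 (chr15:102670998-102671297, minus strand): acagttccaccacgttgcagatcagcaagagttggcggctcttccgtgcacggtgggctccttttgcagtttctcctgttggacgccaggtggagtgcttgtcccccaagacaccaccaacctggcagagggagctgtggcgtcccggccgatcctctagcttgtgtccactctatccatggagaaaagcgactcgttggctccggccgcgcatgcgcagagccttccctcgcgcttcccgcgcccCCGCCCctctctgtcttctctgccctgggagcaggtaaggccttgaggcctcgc
Dbx2 (chr15:95654722-95655021, minus strand): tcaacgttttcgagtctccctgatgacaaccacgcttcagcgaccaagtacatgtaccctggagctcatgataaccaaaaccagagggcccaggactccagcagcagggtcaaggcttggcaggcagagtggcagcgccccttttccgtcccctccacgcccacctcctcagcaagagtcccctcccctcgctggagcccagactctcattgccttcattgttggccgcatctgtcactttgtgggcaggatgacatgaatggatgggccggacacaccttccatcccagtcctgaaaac
Prlr (chr15:10176988-10177287, plus strand): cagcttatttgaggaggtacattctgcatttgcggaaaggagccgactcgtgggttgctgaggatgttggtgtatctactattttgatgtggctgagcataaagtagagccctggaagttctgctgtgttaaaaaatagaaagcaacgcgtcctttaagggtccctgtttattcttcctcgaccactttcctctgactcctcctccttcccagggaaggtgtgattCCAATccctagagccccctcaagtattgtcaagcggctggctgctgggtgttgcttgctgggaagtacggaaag
Npr3 (chr15:11907322-11907621, minus strand): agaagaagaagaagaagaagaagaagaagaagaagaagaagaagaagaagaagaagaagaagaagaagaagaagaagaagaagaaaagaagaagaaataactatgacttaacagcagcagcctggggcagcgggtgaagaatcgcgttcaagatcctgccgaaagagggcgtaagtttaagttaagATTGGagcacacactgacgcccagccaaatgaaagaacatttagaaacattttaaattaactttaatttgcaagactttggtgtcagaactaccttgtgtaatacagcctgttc

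The motifs searched on both strands were the GC box GGGCGG, the CCAAT box CCAAT, the TATA box TATAAA, the octamer ATGCAAAT, the homeodomain core TAATTA and the paired homeodomain palindromes, TAAT and ATTA with 2 or 3 bases between them. A TAATTA match can lie inside a match of a palindrome. Atp5g2 held 1 GC box, Prlr and Npr3 held 1 CCAAT box each, and these letters for any of the 7 motifs were not found in the Dbx2 window. Over 21237 windows of all genes, 46.2% held a GC box, 38.2% a CCAAT box, 12.6% a TATA box, 1.66% the octamer and 4.53% TAATTA. The palindrome with the shorter spacer was in 0.32% and that with the longer spacer in 0.36%. A match describes the letters only.

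The KO peak over the Atp5g2 window (102670465 to 102671385) had a fold enrichment of 5.82, and the FM peak (102670625 to 102671489) had 3.16. Fold enrichment is the peak caller's ratio of the fragment pileup at the summit to the local background. At Dbx2 the KO peak had a fold enrichment of 3.04 and the FM peak 4.43. The KO peak at the Prlr window, 10177162 to 10178576, had 2.96, and that at Npr3, 11907071 to 11907434, had 2.26.

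Relative to the FM list, the KO list held more peaks on chromosome 15 than on any of the 16 autosomes other than 12, 15 and 18. The ratio of KO to FM peaks was 0.985 on chromosome 15 and 0.641 over the other autosomes pooled, which ranged from 0.568 on chromosome 6 to 0.735 on chromosome 17. Chromosomes 12 and 18, which the comparison leaves out, lay between, with 0.807 on chromosome 12 and 0.895 on chromosome 18. The other autosomes together held 112384 KO peaks and 175400 FM peaks. With only the 50000 peaks of lowest p from each list, the ratio was 1.38 on chromosome 15 and 0.966 on the other autosomes. In these bulk libraries, more cells with a region open and more open copies per cell cannot be told apart.

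The numbers of the lists came together from both sides. Of the merged chromosome 15 regions, 3315 were KO-specific, with no FM peak, which is 28.2% against 14.4% on the other autosomes and 16% over all regions. FM-specific regions numbered 3383, or 28.7%, against 45.7% on the other autosomes and 43.6% over all regions. The other 5069 were shared. The KO-specific share of all specific regions was therefore 49.5% (exact binomial 95% interval 48.3% to 50.7%) on chromosome 15 and 24.0% on the other autosomes, where single chromosomes ran from 19.3% to 30.5%. Chromosome 12 had 36.5% and chromosome 18 had 43.6%. None of the 16 compared autosomes had as many KO-specific regions, whereas 14 of them had at least as many FM-specific ones. Chromosome 12, outside the 16, had 3728 KO-specific regions, more than chromosome 15.

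Peaks themselves looked alike in the lists. On chromosome 15 the median fold enrichment was 1.94 in the KO list and 1.94 in the FM list, the median width 343 bp and 350 bp, and the length covered 3.99 Mb and 4.07 Mb. The median pileup at the summit, recovered from the fold and the p-value, was 80 fragments in the KO list and 79 in the FM list. How many reads lie behind the lists is unknown. Recovered in the same way, the background over the whole genome was 28.8 fragments in the KO list and 28.6 in the FM list.

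**Figure D1:**
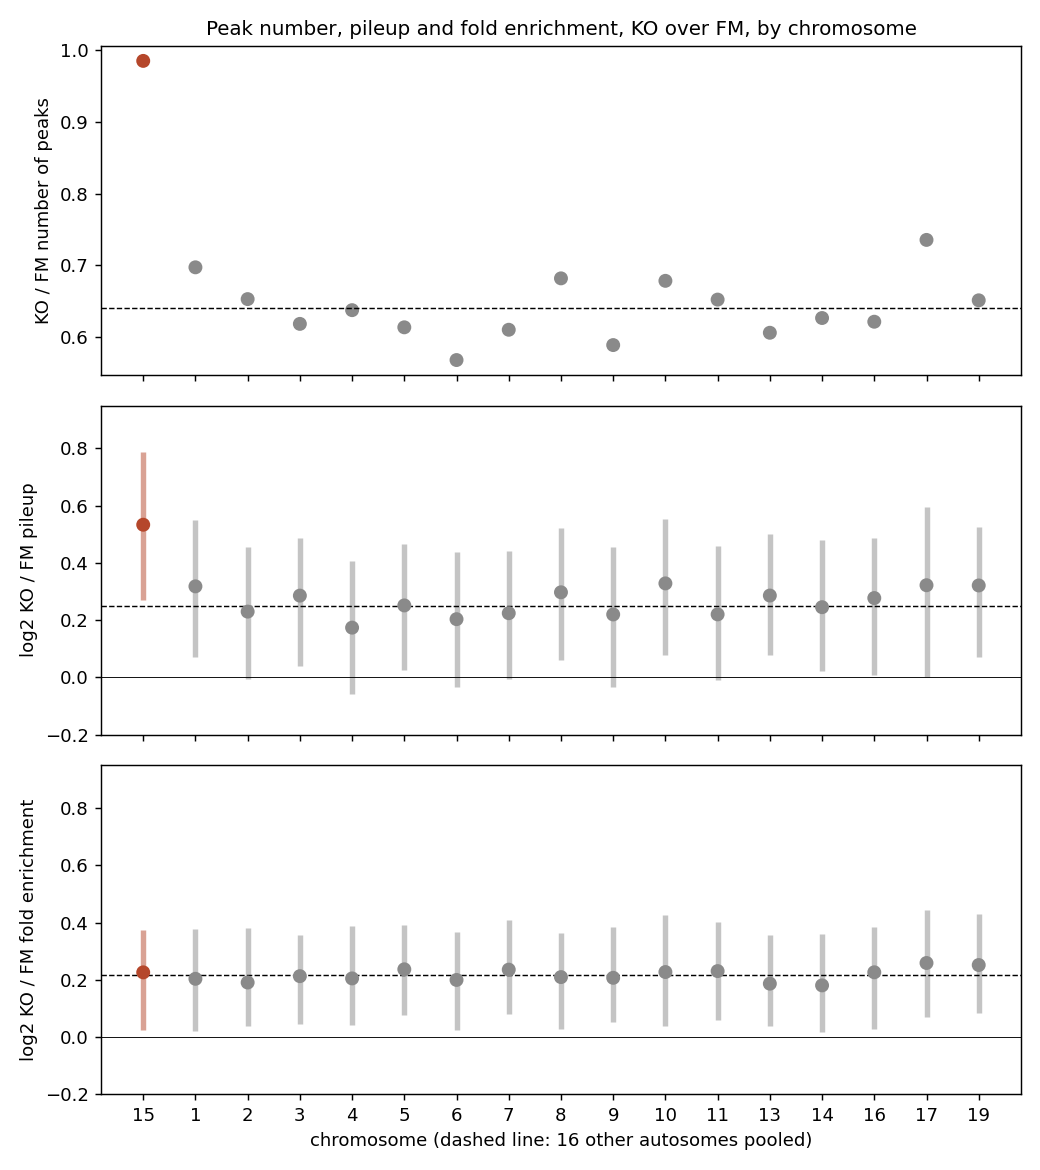
KO over FM values by chromosome, with chromosome 15 from 5 Mb at the left in red and the 16 other autosomes in grey. The top panel plots the ratio of peak numbers, the middle and lower panels the median log2 ratio (points) and quartiles (bars) of pileup and of fold enrichment at shared regions whose −log10 q reached 20 in both lists. Chromosome 15 sits above the 16 autosomes plotted in peak number (0.985) and pileup (0.53), and among them in fold enrichment (0.23). Chromosomes 12 and 18 are not plotted.

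At regions present in both lists, fold enrichment did not follow the peak numbers. Over 4631 shared regions with 1 peak of each list, the median log2 ratio of KO to FM fold was −0.01 on chromosome 15 (95% order-statistic interval −0.01 to 0.00) and 0.01 on the other autosomes. The rank of a region is its percentile by fold over the same shared regions of all assembled chromosomes. The median KO minus FM rank difference was 0.096 percentile points on chromosome 15 (−0.29 to 0.45) and 0.021 on the other autosomes. The sign of that median was not stable, since it was −0.74 for peaks whose −log10 q reached 5 and −0.40 with the 50000 peaks of lowest p.

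Pileup and background did differ. The median log2 ratio of KO to FM pileup at these shared regions was 0.14 on chromosome 15 (0.13 to 0.16) and −0.10 on the other autosomes, whose own medians lay between −0.18 and −0.03. The log2 ratio of the local background was 0.15 on chromosome 15 and −0.07 on the other autosomes. The background thus moved with the pileup, and its part in the peak numbers was not tested.

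Strong regions were those whose −log10 q reached 20 in both lists, a cut-off set with the data in view. Pileup ratios were higher there on chromosome 15 and on the other autosomes alike. The difference between them in median log2 pileup ratio was 0.25 over all these shared regions and 0.28 at strong regions. Chromosome 15 had 636 strong regions and the other autosomes 12487. Pileup was higher in KO at 596 of the 636, which is 93.7%, against 75.6% on the other autosomes. The median log2 pileup ratio was 0.53 (0.50 to 0.58) on chromosome 15 and 0.25 on the other autosomes, of which the highest was 0.33 on chromosome 10. Outside the 16, it was 0.31 on chromosome 12 and 0.47 on chromosome 18, where 89.1% of strong regions had the higher pileup in KO. The background ratio was 0.32 on chromosome 15, 0.24 on chromosome 18, 0.15 on chromosome 12 and 0.02 on the other autosomes. Set against the other autosomes, chromosome 15 thus had a 1.22-fold excess of KO over FM pileup and a 1.24-fold excess of background. The log2 fold ratio was 0.23 on chromosome 15 (0.20 to 0.25) and 0.22 on the other autosomes, a difference of 0.01, and 7 of the 16 other autosomes were at or above chromosome 15.

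A pileup at least 1.5 times as high in KO as in FM was found at 287 of the 636 strong regions, 45.1%, against 16.5% on the other autosomes and 18.9% over all chromosomes. A fold enrichment at least 1.5 times as high in KO was found at 43 of them, 6.76%, against 7.75% on the other autosomes and 7.67% over all chromosomes. The opposite, a fold at least 1.5 times as high in FM, was found at 1 region, 0.157%, against 0.225% over all chromosomes. That region, over the end of Dnah5, an axonemal dynein heavy chain gene, had a fold of 3.66 in KO and 6.43 in FM.

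Which peaks were shared differed most from the other autosomes among weak peaks. Of the FM peaks with −log10 q under 2, 41.8% were shared on chromosome 15 and 20.3% on the other autosomes. Between 5 and 10 these shares were 62.0% on chromosome 15 and 46.3% on the other autosomes, and between 20 and 50 they were 99.5% and 98.5% in the same order. KO peaks ran the other way. Under 2, 40.6% of the KO peaks of chromosome 15 and 56.5% of those of the other autosomes were shared, and between 10 and 20, 76.9% on chromosome 15 and 85.3% on the other autosomes.

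**Figure D2:**
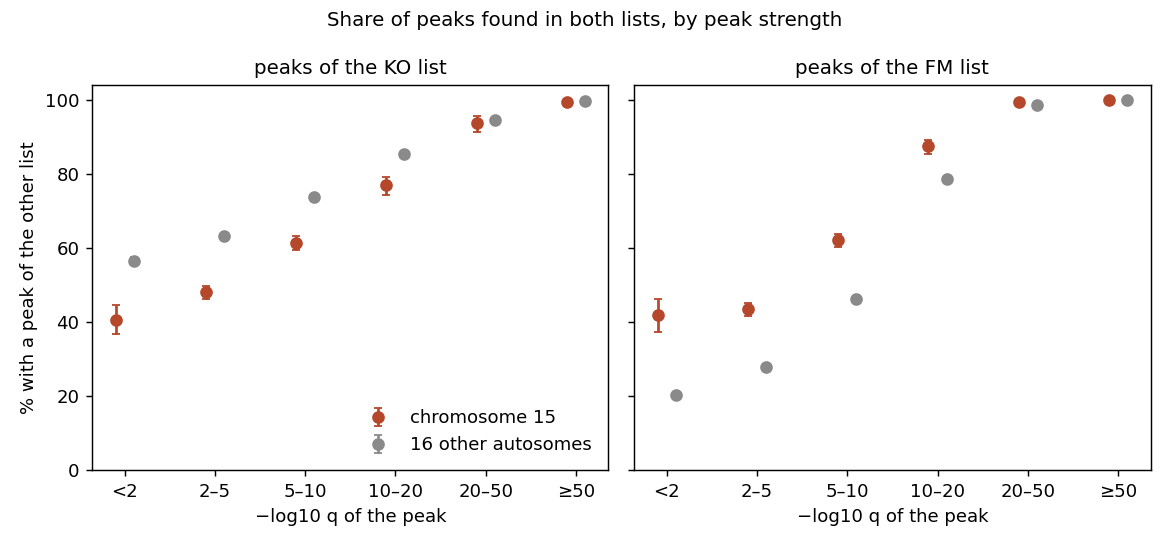
Percent of peaks that overlap a peak of the other list, by −log10 q of the peak, for KO peaks (left) and FM peaks (right), with exact binomial 95% intervals. Red points are chromosome 15 from 5 Mb and grey points the 16 other autosomes. KO peaks of chromosome 15 are shared less often and FM peaks more often up to −log10 q of 20, and above 20 the points of the FM list lie at 98.5% or more.

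Among the specific peaks, the KO side weighed more as strength rose. At −log10 q of at least 10, chromosome 15 had 308 KO-specific and 152 FM-specific peaks, a KO share of 67.0% against 33.5% on the other autosomes. At 20 or more it had 38 KO-specific and 3 FM-specific peaks, 92.7% against 75.4%. The KO-specific peak of highest fold, 5.66, lay at 47539889 to 47540232, 40.6 kb from Csmd3, which encodes a large transmembrane protein of neurons. The next, with a fold of 5.21, began at 37812215, 19.9 kb from Ncald, a neuronal calcium sensor gene. The third began at 19242822, 227 kb from Cdh10. A pair beginning at 6044171 and 5991340, with folds of 4.59 and 4.54, lay 255 kb and 307 kb from Dab2, an endocytic adaptor of the extraembryonic endoderm. All 5 were intergenic.

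The FM-specific peaks of highest fold were lower and all lay inside genes. The first, 25698899 to 25699210 in Myo10, a filopodial myosin gene, had a fold of 3.20. The next began at 32535827 in Sema5a, a guidance-cue gene, with 3.11, and at 100346755 in Mettl7a3 with 3.08. The remaining pair began at 72869882 in Trappc9, which encodes a subunit of a trafficking complex, with 3.03, and at 41521649 in Oxr1, an oxidation-resistance gene, with 3.01. The 5 peaks a side were picked by fold, and all specific peaks split far less by place. Of the KO-specific peaks, 1643 lay in gene bodies and 1541 between genes. For FM-specific peaks these numbers were 1935 and 1232 in that order.

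Along the chromosome, all 20 windows of 5 Mb lay above the pooled other autosomes in KO to FM peak ratio and in KO-specific share, but the share varied widely between them. In 11 windows KO-specific regions outnumbered FM-specific ones, and in 9 they did not. The share was highest from 20 to 25 Mb, a window with 4 protein-coding genes, where 30 regions were KO-specific and 1 was FM-specific (96.8%). From 45 to 50 Mb, with 2 genes, the numbers were 22 KO-specific and 2 FM-specific regions (91.7%). The window from 40 to 45 Mb had 97 KO-specific and 17 FM-specific regions (85.1%), and that from 90 to 95 Mb had 222 and 72 in the same order (75.5%).

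The lowest shares came from consecutive windows. From 70 to 75 Mb there were 129 KO-specific and 241 FM-specific regions (34.9%), and from 75 to 80 Mb, with 157 genes, 281 KO-specific and 482 FM-specific regions (36.8%). From 80 to 85 Mb the numbers were 274 KO-specific and 453 FM-specific (37.7%). A proximal window, 25 to 30 Mb, was as low, with 119 KO-specific and 190 FM-specific regions (38.5%). The count of windows depended on the length of the lists. With the 50000 peaks of lowest p, all 20 windows had more KO-specific regions.

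**Figure D3:**
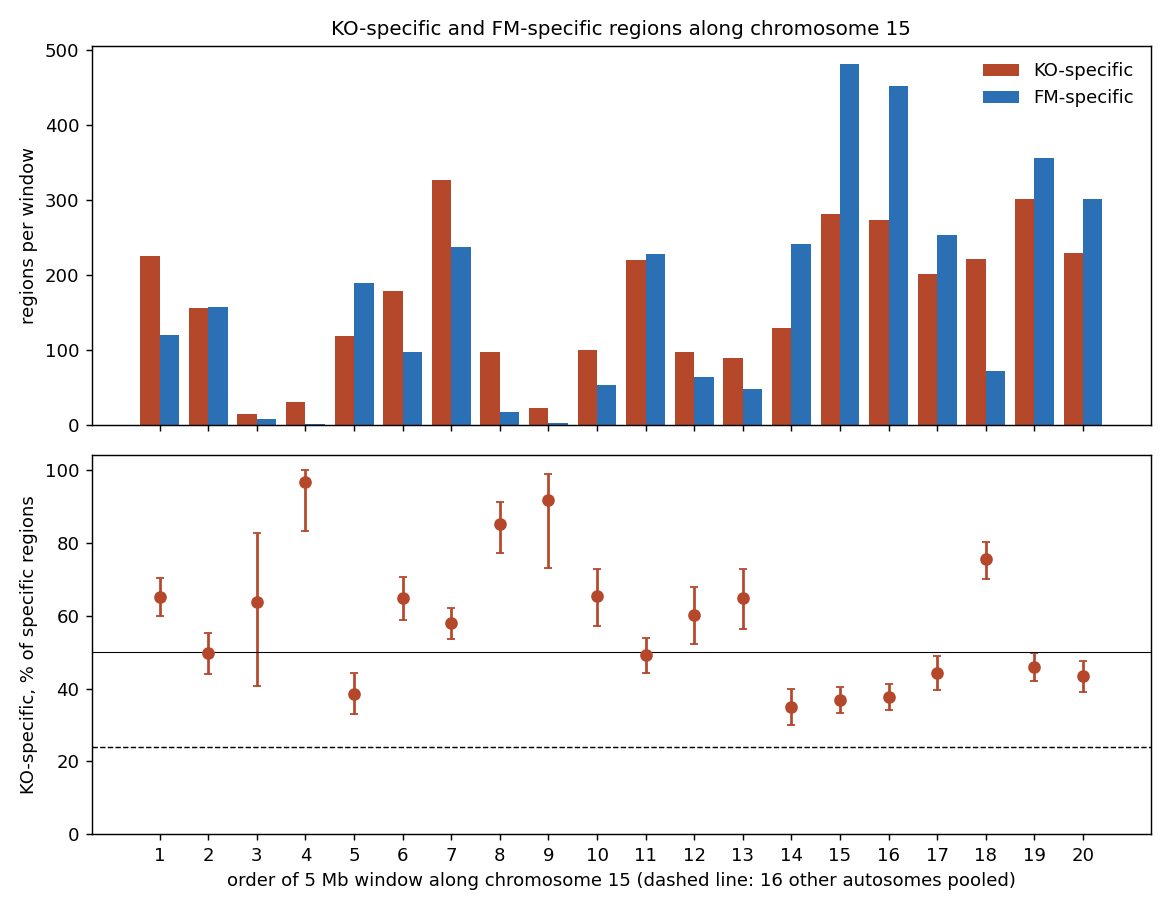
KO-specific (red) and FM-specific (blue) regions in each of 20 windows of 5 Mb along chromosome 15, in order from 5 Mb (top), and the KO-specific percent of specific regions with exact binomial 95% intervals (bottom). The solid line is at 50% and the dashed line at the 24.0% of the 16 other autosomes. All windows lie above the dashed line, and the highest, windows 4 and 9, have few regions.

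Windows with few regions had the higher KO-specific share. Across the 20 windows, Spearman's rank correlation between the share and the number of regions was −0.79, and across 405 windows of the other autosomes with at least 20 specific regions it was −0.41. Both measures come from the same peak lists, and neighbouring windows share a chromosome. In windows of up to 200 regions the pooled share was 85.3% on chromosome 15 and 34.7% on the other autosomes, from 200 to 500 regions 63.1% and 25.7% in that order, and from 500 to 1000 regions 49.0% and 22.3%. Above 1000 regions it was 40.6% on chromosome 15 and 23.1% on the other autosomes. In the 4 classes, 1 of 105, 0 of 127, 3 of 129 and 0 of 44 windows of the other autosomes reached the median chromosome 15 window of that class.

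Pileup was higher in KO along the whole chromosome where it could be measured. In the 15 windows with at least 20 shared regions of −log10 q of at least 10, the median log2 KO to FM pileup ratio ran between 0.19 (25 to 30 Mb) and 0.54 (90 to 95 Mb). The median over 324 such windows of the other autosomes was 0.13, which all 15 exceeded, and 9 exceeded their percentile 95 of 0.35. The fold ratio ran from 0.01 to 0.21 over the same 15 windows, with a median of 0.10. There the other windows had a median of 0.14, which 6 exceeded, and none exceeded their percentile 95 of 0.24. The median rank difference ran from −2.24 percentile points (25 to 30 Mb) and was highest from 75 to 80 Mb.

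By place, the KO-specific share was lowest at gene ends and highest between genes. At gene ends, meaning a summit no more than 1 kb from either end of a gene, there were 131 KO-specific and 216 FM-specific peaks, 37.8% KO-specific (32.6% to 43.1%), against 24.5% on the other autosomes. In gene bodies the numbers were 1643 KO-specific and 1935 FM-specific, 45.9% (44.3% to 47.6%) against 22.0%. Intergenic peaks numbered 1541 KO-specific and 1232 FM-specific, 55.6% (53.7% to 57.4%) against 26.5%. With the 50000 peaks of lowest p, gene ends stood at 65.7% and gene bodies at 67.3%, so that the side with more specific peaks changed there, while the other autosomes stood at 45.8% and 43.6% in the same order.

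The number of KO peaks per FM peak separated chromosome 15 least at gene ends, where it was 0.901 on chromosome 15 and 0.840 on the other autosomes. In gene bodies it was 0.934 on chromosome 15 and 0.595 on the other autosomes, and between genes 1.09 and 0.646 in that order. Pileup was higher in KO at strong regions of every place. There the median log2 KO to FM pileup ratio was 0.63 at gene ends of chromosome 15 and 0.32 at those of the other autosomes. In gene bodies it was 0.43 on chromosome 15 and 0.13 on the other autosomes, and between genes 0.37 and 0.15. The fold ratios were 0.27 and 0.26 at gene ends, 0.17 and 0.18 in gene bodies and 0.13 and 0.11 between genes, chromosome 15 before the other autosomes.

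Of the 765 protein-coding genes of the interval, 712 had at least 1 specific region assigned within 100 kb. KO-specific regions were in the majority at 256 of them, 36.0% against 13.4% of such genes on the other autosomes. FM-specific regions were in the majority at 386, or 54.2% against 78.9%. The numbers were equal at 70. Genes with a KO majority were longer on chromosome 15, with a median of 31.9 kb against 17.7 kb for genes with an FM majority. On the other autosomes these medians were 17.4 kb and 24.7 kb. A further 695 regions lay over 100 kb from any gene, of which 344 were KO-specific, 140 FM-specific and 211 shared.

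Outside the gene lists, the largest KO excess was at Vps13b (gene ID 666173, 35371118 to 35931229), a lipid transfer protein gene of the Golgi, with 30 KO-specific and 4 FM-specific regions. Tmem117, a membrane protein gene, followed with 26 KO-specific and 3 FM-specific regions. Tafa5, a secreted neurokine gene, had 14 KO-specific and 0 FM-specific regions, and the glucose and inositol transporter gene Slc2a13 had 16 and 2 in that order. Nipal2, Adamts20, Mucl2, Ly6g2, Rgs22 and Dbx2 had between 13 and 19 KO-specific regions each and at most 5 FM-specific ones. Lrp12, Samd12, Alg10b and Pdzrn4 tied with Rgs22 and Dbx2 at an excess of 11 and are named for that tie. The excess shrank in shorter lists. At −log10 q of 5 or more it was 8 regions at Vps13b and lay between 3 and 16 over the 10 genes. With the 50000 peaks of lowest p it was 3 at Vps13b and lay between 0, at Ly6g2, and 6, at Mucl2. Of the 10 genes, Slc2a13, Tmem117 and Adamts20 lie in the window from 90 to 95 Mb or across its edge.

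The largest FM excess was at Pdzd2 (gene ID 68070, 12359711 to 12739968), a PDZ-domain protein gene, with 25 KO-specific and 56 FM-specific regions, and at Trappc9 with 26 and 54 in that order. Shisal1, Atxn10, Myo10, Adgrb1, Dennd3, Mtss1, Scube1 and Slc38a1 had between 4 and 22 KO-specific and between 18 and 37 FM-specific regions. Trib1, with 1 KO-specific and 14 FM-specific regions, tied with Mtss1, Scube1 and Slc38a1 and is named for that tie. With the 50000 peaks of lowest p, the excess was on the KO side at 7 of the 10, by 3 regions at Pdzd2, 7 at Trappc9, 5 at Myo10, 1 at Dennd3, 7 at Mtss1, 1 at Scube1 and 4 at Slc38a1. At Slc38a1 it was also on the KO side, by 1 region, at −log10 q of at least 5.

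**Figure D4:**
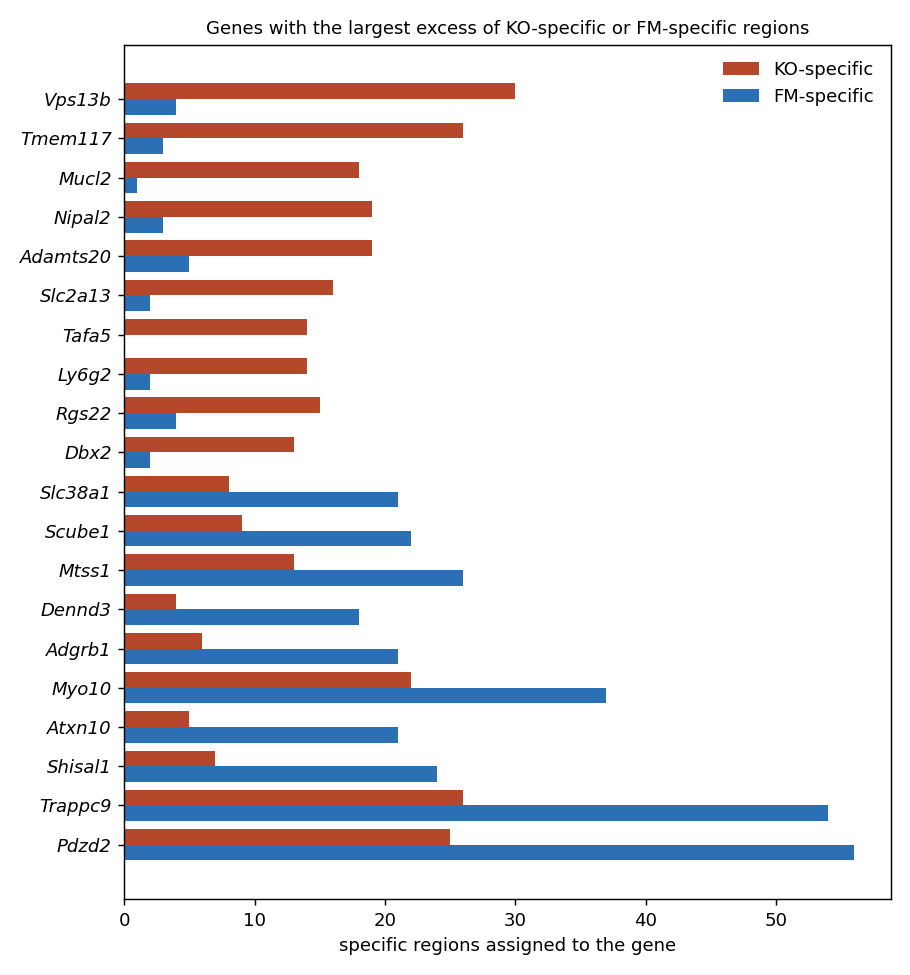
KO-specific (red) and FM-specific (blue) regions at the 10 genes of chromosome 15 with the largest KO excess (top) and the 10 with the largest FM excess (bottom), leaving out genes of the fixed lists. Vps13b has 30 KO-specific and 4 FM-specific regions, and Pdzd2 has 25 and 56 in the same order.

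The gene lists split nearly evenly between the groups. Over all protein-coding genes of chromosome 15, 2992 assigned regions were KO-specific and 3267 FM-specific, 47.8% KO-specific, and the 7 lists ran from 44.3% to 54.7%. The genes of signalling, 19 of them counted, had 76 KO-specific and 72 FM-specific regions, with 7 genes on the KO side, 8 on the FM side and 4 equal. Ptk2, the focal adhesion kinase gene, had 15 KO-specific and 19 FM-specific regions, Wnt7b had 6 and 17, and the Wnt receptor gene Fzd6 had 8 and 5, each in that order. Prlr had 10 KO-specific and 0 FM-specific regions.

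Genes of growth and self-renewal had 106 KO-specific and 95 FM-specific regions, and 7 of 14 genes lay on each side. Stk3, the Hippo pathway kinase gene also called Mst2 (34875499 to 35155882), had 37 KO-specific and 2 FM-specific regions. Grhl2, a transcription factor of epithelia, had 12 KO-specific and 19 FM-specific regions, and Lifr, the receptor of leukaemia inhibitory factor, had 8 and 19 in that order. Without Stk3 the list would have fewer KO-specific than FM-specific regions.

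The widest spread was among genes of neurons and adhesion, with 193 KO-specific and 161 FM-specific regions. Of its 20 genes, 12 lay on the KO side and 6 on the FM side. Rims2, a gene of the presynaptic active zone (39198286 to 39684372), had 41 KO-specific, 1 FM-specific and 6 shared regions. Trio, a guanine nucleotide exchange factor gene (27730649 to 28025848), had 15 KO-specific, 50 FM-specific and 56 shared regions. Without Rims2 the list would have fewer KO-specific than FM-specific regions, and without Trio its KO lead would be wider. Slc1a3, the glial glutamate transporter gene, had 16 KO-specific and 16 FM-specific regions. Genes of mesoderm and matrix had 128 KO-specific and 106 FM-specific regions, 8 genes on the KO side and 7 on the FM side. In this list Ext1, a heparan sulphate polymerase gene, had 22 KO-specific and 28 FM-specific regions, and Zfpm2, a cofactor of GATA factors, had 20 and 2 in that order.

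The Hoxc cluster had 18 KO-specific and 18 FM-specific regions over 9 genes, with 8 KO-specific and 5 FM-specific regions at Hoxc4 and 7 and 6 in that order at Hoxc13. Epithelial and extraembryonic genes had 35 KO-specific and 44 FM-specific regions, with 5 genes on the KO side and 7 on the FM side. Celsr1, a planar polarity cadherin gene, had 7 KO-specific and 16 FM-specific regions, and Dab2 had 14 and 3 in that order. Genes of chromatin and housekeeping had 105 KO-specific and 114 FM-specific regions, with 5 genes on the KO side, 10 on the FM side and 3 equal. Drosha, the nuclear microRNA processing enzyme gene, had 19 KO-specific and 19 FM-specific regions, Ywhaz, a 14-3-3 protein gene, had 10 and 25, and the cohesin loader gene Nipbl had 15 and 7, each in that order. With the 50000 peaks of lowest p, every one of the 7 lists had a higher KO-specific share, between 62% (chromatin and housekeeping) and 90.9% (Hoxc cluster). Over all specific regions of chromosome 15 the share also rose, from 49.5% to 70.9%. The Hoxc cluster has the fewest specific regions of the lists. At −log10 q of 5 or more, signalling stood at 45.1% and mesoderm and matrix at 47.4%, on the FM side.

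Strong regions at gene ends held more fragments in KO than in FM almost throughout. Among 348 strong shared regions at ends of 344 genes, pileup was higher in KO at 338 and fold enrichment at 297. The pileup share, 97.1%, compares with 82.5% at gene ends of the other autosomes. For fold enrichment that share is not given, and the median log2 ratio was 0.27 here and 0.26 there. Over all strong regions, fold was higher in KO at 78.3% on chromosome 15 and at 80.5% on the other autosomes. The ends of highest fold ratio belonged to Tigd5, Atp5g2, Gpaa1, Ift27, Cpsf1, Sbf1, Calcoco1, Smarcd1, Chrac1 and Exosc4, with log2 ratios between 0.68 and 0.89. Atp5g2 had a pileup of 738 fragments in KO and 265 in FM over backgrounds of 126 in KO and 83.1 in FM. Chrac1, a histone-fold subunit of chromatin remodelling complexes, had a fold of 9.52 in KO and 5.92 in FM, with pileups of 809 and 290 in that order. Smarcd1, a subunit of the BAF remodelling complex, had a fold of 4.31 in KO and 2.66 in FM. Cpsf1, a subunit of the polyadenylation machinery, had 6.16 in KO and 3.62 in FM.

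The ends of lowest fold ratio were at Dnah5, Dbx2, Syce3, Ttll8, Snu13, Pick1, Cyp2d22, Ccdc184, Gdnf and Rgs22, with log2 ratios between −0.81 and −0.23. Their log2 pileup ratios lay between −0.52 and 0.14. The background was higher in KO at all 10, as it also was at the 10 ends of highest fold ratio. Over all 348 strong regions at gene ends the median log2 KO to FM background ratio was 0.37. Dbx2 had a pileup of 124 fragments in KO and 146 in FM over backgrounds of 40.1 in KO and 32.2 in FM. Its log2 pileup ratio of −0.24 had a counting interval from −0.59 to 0.12. Gdnf, a neurotrophic ligand of the Ret receptor, had a fold of 2.43 in KO and 2.93 in FM, with a pileup of 166 in KO and 151 in FM. Dbx2 and Rgs22 were also among the 10 genes named for a KO excess of specific regions, tied at 11 with 4 others. At Rgs22 the log2 fold ratio of −0.23 had a counting interval from −0.55 to 0.09. Pileup at the Rgs22 end was 161 fragments in KO and 151 in FM, so no opposite side is shown there.

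**Figure D5:**
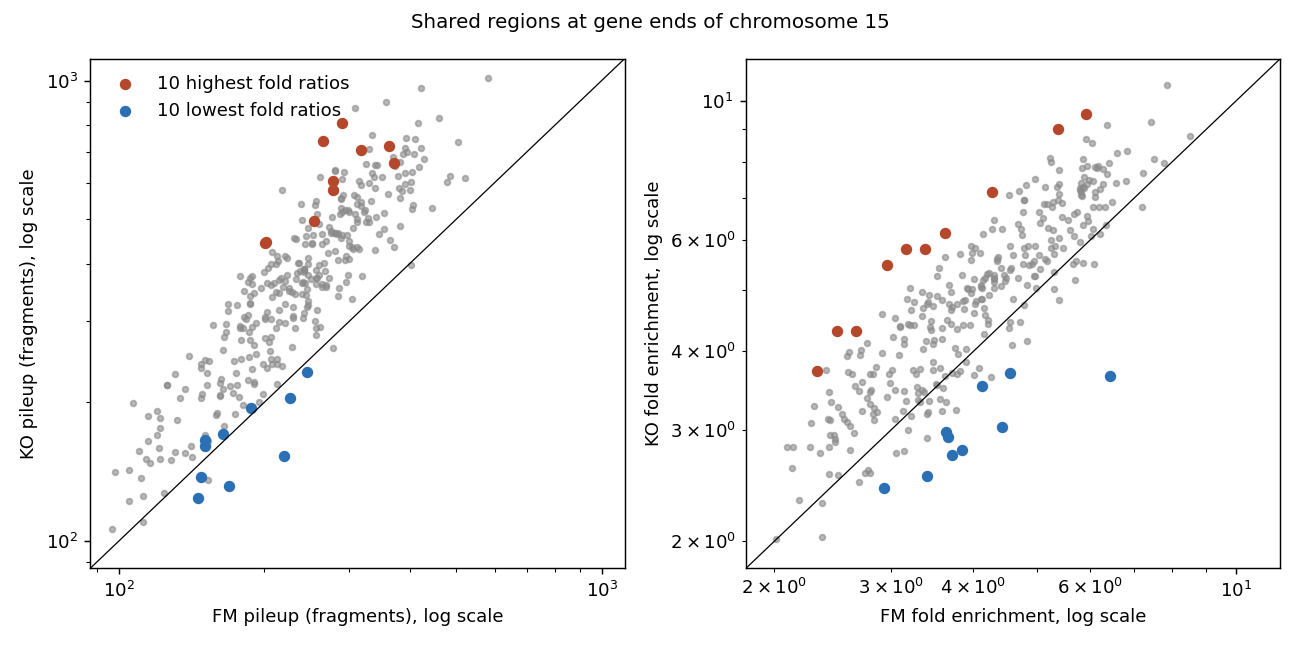
KO values (y axis) against FM values (x axis) at 348 shared regions within 1 kb of a gene end on chromosome 15 strong in both lists (−log10 q of 20 or more), for pileup (left) and fold enrichment (right), on log axes with the line of equality. Red and blue points are the 10 highest and 10 lowest fold ratios. Pileup lies above the line at 338 regions and fold enrichment at 297.

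Among the genes of the fixed lists, 77 had a shared region with 1 peak of each list at an end, whatever its strength. Pileup was higher in KO at 71 and fold enrichment at 53 of them. Such shares over all gene ends of any strength are not given. Over 670 such regions at gene ends of chromosome 15, the median log2 pileup ratio was 0.39, and on the other autosomes 0.15. Over the 77 it was 0.46. The median log2 fold ratios were 0.13, 0.16 and 0.21 in the same order. All 12 ends of chromatin and housekeeping genes had the higher pileup in KO, with a median log2 ratio of 0.78, and so did all 9 of growth and self-renewal (0.80), all 13 of mesoderm and matrix (0.46) and all 8 of the Hoxc cluster (0.36). Of the 13 signalling genes 12 did (0.55), with Wnt1 as the exception, and of the 13 genes of neurons and adhesion 11 did (0.26). Epithelial and extraembryonic genes had the most exceptions, with a higher pileup in KO at 6 of 9 and a median of 0.20. Those exceptions, Gsdmd, Lypd2 and Plec, were weak, with a lower −log10 q of 6.57, 2.97 and 7.73 in that order. Of the 6 ends with the higher pileup in FM over all lists, only Sox10 had a counting interval that excluded 0 (−0.65 to −0.08). The part of peak strength in the differences between lists was not tested. In fold enrichment the Hoxc ends were mixed, 3 higher in KO and 5 higher in FM, and so were those of epithelial and extraembryonic genes, 4 and 5 in that order.

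Foxh1 encodes the DNA-binding partner of Smads in Nodal signalling, and its end (76671173 to 76671986) had a fold of 6.26 in KO and 4.26 in FM with pileups of 713 and 392 in that order. Acvr1b, an Activin and Nodal receptor gene, had a fold of 4.68 in KO and 3.87 in FM. Wnt1 had the opposite order, with a fold of 2.04 in KO and 2.78 in FM and a pileup of 162 fragments in KO and 194 in FM. The log2 pileup ratio of Wnt1, −0.26, had a counting interval from −0.57 to 0.05. These 3 genes were picked after their values were seen.

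At promoter windows, peaks of 1 list alone were few. Of 413 chromosome 15 genes with a window, 313 had a peak over it in both lists and 67 in neither. A peak in the KO list only was found at 14, 3.39% against 1.41% on the other autosomes and 1.46% over all chromosomes. A peak in the FM list only was found at 19, 4.6% against 3.98% on the other autosomes and 3.83% over all chromosomes. At Prlr, Gdnf and Slc38a4 the KO peak over the window belonged to a region with an FM peak beside the window. At Rxfp3, Olfr279 and Fignl2 the FM peak belonged to a region with a KO peak beside the window. Peaks over the remaining windows, among them that of Npr3, were specific to 1 list.

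In both lists, 6 of 7 epiblast markers and all 6 primitive streak markers had a peak within 1 kb of a gene end. Otx2 had none in either. Over all chromosomes, 65.1% of genes with a promoter window had a peak in both lists over that narrower window. The share of all genes by the 1 kb rule is not given, so these counts do not tell cell types apart. Fold at the Mixl1 end, on chromosome 1, was 2.97 in KO and 4.26 in FM, which does not check a deletion. Of 6 fibroblast markers, 5 had a peak in both lists, with folds between 2.10 and 4.02 in KO and between 2.21 and 5.08 in FM, and Col3a1 had none. What part feeder cells have in any value was not tested.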

How the data were processed

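Chromatin accessibility was measured in 6 libraries and deposited as 2 peak lists in narrowPeak layout, 1 per group, without headers. The submitters' processing notes name the build mm10 and the tools MACS2, SAMtools, Bowtie2 and bcl2fastq. Their versions, the pooling of the 3 libraries and any shift or duplicate filter are not stated in the labels. Columns that the authors deposited are a fold enrichment, which is a ratio over local background, −log10 of p and −log10 of q, with a lowest −log10 q of 1.30. The deposited display score was not used. These are the caller's values and describe peaks within a list.

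Summit rows of the same interval were collapsed to the lowest p. Peaks of both lists were merged into regions, and a region was shared where KO and FM peaks overlapped by at least 1 bp. Pileup and background were solved from fold and p, with pileups whole within 0.02 for 139156 of 139164 KO peaks and 205841 of 205844 FM peaks. Genes came from a RefSeq table of GRCm38.p6, the assembly mm10 names. It has no strand or exons, so place means a summit within 1 kb of a gene end, in a gene body, or intergenic. Regions went to the nearest protein-coding gene within 100 kb. Of the 110 listed genes, 108 were counted. Shares carry Clopper-Pearson intervals, medians order-statistic intervals, both at 95%, for counting error only. PCR reads are not independent molecules. With 1 list per group there was no test. Named genes were examples of each list with most specific regions, the 10 largest excesses a side, the 10 highest and lowest fold ratios at strong gene ends and the 5 specific peaks of highest fold a side. Members and lists were chosen with earlier results of these data known. Motif counts used RefSeq promoter windows. Python 3.11.15, numpy 2.4.6, pandas 2.3.3 and scipy 1.17.1 were used, and the overlap and recovery functions were tested on simulated data.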

Additional observations from a re-analysis of the deposited data

Results flagged for a closer look

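The chromosome 15 peaks below 5 Mb were left out of the comparisons by the choice of interval. No count is given for the first 5 Mb of other chromosomes. Whether the numbers below are particular to chromosome 15 was not tested. The KO list had 95 peaks there and the FM list 19. Merged, 81 regions were KO-specific, 3 FM-specific and 14 shared. The KO peak last below the boundary, 4975998 to 4976267, was KO-specific with a fold of 2.11, and the first above it, at 5026185, had a fold of 2.01. In the FM list the last peak below, 4376356 to 4376583, had a fold of 2.13 and the first above, at 5026209, a fold of 2.20.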

How the results depend on the processing

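No paired analysis was possible because the 3 libraries of a group were given as 1 list, and for the same reason no replicate could be left out. The KO-specific share and the peak ratio of chromosome 15 stayed above those of the other autosomes under every alternative run on them. With the 50000 peaks of lowest p from each list, which makes the lists equally long, the chromosome 15 values were 1.38 for the peak ratio, 70.9% for the KO-specific share, 0.078 for log2 fold, −0.40 for rank, 0.30 for log2 pileup and 76.5% for intergenic peaks, and the side changed at gene ends (65.7%) and gene bodies (67.3%). All 20 windows then had more KO-specific regions. For peaks of −log10 q 5 or more they were 0.954, 47.6%, 0.023, −0.74 and 0.20 for the first 5 of these, and 43.7% in gene bodies. At strong shared regions, log2 fold was 0.23 and log2 pileup 0.53. With windows of 2 Mb, 32 of 50 had more KO-specific regions. The cause was not tested. Taking the whole of chromosome 15, an overlap of 50% of the shorter peak, every summit row, all shared regions, or gene ends of 3 kb kept each value within its counting interval. Genes with a KO majority numbered between 223 and 377. Of the recomputed values, 72 of 100 for single genes and 27 of 35 for lists stayed within their intervals. Among them, 43 for single genes and 7 for lists were identical to the main values. Taking the whole of chromosome 15 left every single-gene value unchanged and is no check on them. With the 50000 peaks, 2 single-gene values and 0 list values stayed within their intervals. The side changed for 8 gene values: Pdzd2 (3), Trappc9 (7), Myo10 (5), Dennd3 (1), Mtss1 (7), Scube1 (1) and Slc38a1 (4) with the 50000 peaks, and Slc38a1 (1) for peaks of −log10 q 5 or more. It changed for 4 list values: epithelial and extraembryonic (63.6%) and chromatin and housekeeping (62%) with the 50000 peaks, and signalling (45.1%) and mesoderm and matrix (47.4%) for peaks of −log10 q 5 or more. The fold ratios at the 20 named gene ends, picked for strong peaks, were left as they were by every setting and are no check. Starting the other autosomes at 5 Mb gave them a ratio of 0.638. Depth in reads is unknown, and windows from 15 to 25 Mb and 45 to 50 Mb had at most 10 shared regions with 1 peak of each list.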
